A study of Homo sapiens with 4 samples.

Results

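Long stretches of m7G enrichment that lay in a single uninterrupted block of the genome were examined in U2OS cells, an established human osteosarcoma line. A peak belonged to this class if its row listed 1 block of at least 300 nt. The class held 298 of 4326 peaks in IP replicate 1 (6.89%) and 303 of 4862 in IP replicate 2 (6.23%), a mean of 300.5 ± 3.54 (SD, n = 2). Of these, 172 were long in both replicates and each other's best overlap on the same chromosome and strand. They are called shared long peaks below and lay on 165 genes. The study made 2 input and 2 immunoprecipitated (IP) libraries from poly(A) RNA of untreated cells, with an anti-m7G antibody, and all groups share the same line and the absence of treatment. Each IP replicate has its own table of peaks, listing the position, p-value, false discovery rate and fold of IP over input of each, all of them the authors' values. The input libraries enter through those folds alone. With no read counts listed, the depth of a peak cannot be given. Nothing in the labels ties the replicates to separate cultures, so their spread is possibly technical only.

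N7-methylguanosine (m7G) is a positively charged methylated guanine. It forms the cap at the first nucleotide of an mRNA, where it protects the transcript from decay and is bound by the translation initiation machinery, and it has also been mapped inside mRNAs. Antibody enrichment of fragments marks stretches of RNA rather than single bases, and fragments of a capped mRNA's first bases carry the cap itself. A peak crossing a splice junction is drawn as several blocks, whereas a peak that stays within contiguous sequence is drawn as 1 block. A long single block therefore needs an exon, an intron kept in the RNA or an unannotated stretch of at least that length. Genes whose coding sequence sits in a single exon, such as many SOX and FOX transcription factors and replacement histones, offer such stretches, as do terminal exons.

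The sequences below are shown because their peaks covered an annotated gene start in both replicates, the place of the cap. Of the 172 shared long peaks, 22 covered the same listed RefSeq start (GRCh38.p14) in both. The first 30 bases from the start are given on the gene's strand, 5′ to 3′, for 7 of these, and capitals mark matches to the hexamer GANGAN, in which N is any base. PGRMC2, CUL3 and YBX3 were the only ones of the 22 with a match in these bases. All of them are among the 7, so matches are more frequent in those shown than in the 22.
NCKAP1, chr2:183038428-183038457, minus strand: ctcagccgccggagacgccgccgccgccgc
TRIM44, chr11:35662775-35662804, plus strand: ggcggctgccgcgatctctccctggtagcg
DENND5A, chr11:9265297-9265326, minus strand: ggcgctctcggctagctgcagcggcggcgg
COL5A1, chr9:134641805-134641834, plus strand: ccgcactctccgtccccgcggctggcgcag
PGRMC2, chr4:128287784-128287813, minus strand: GAGGAAggcgctggcgggcagtgatggcgg
CUL3, chr2:224585334-224585363, minus strand: GAGGACGACgttcggcctgcgcagtgagat
YBX3, chr12:10723294-10723323, minus strand: agtaagatcgagcGAGGAGcccaagagaga
NCKAP1, a subunit of the WAVE complex that drives actin branching, had folds of 55.5 in replicate 1 and 24.3 in replicate 2 here, and TRIM44, a tripartite motif protein, 23.1 and 10. The peaks of DENND5A, a regulator of RAB GTPases (14.2 and 11.2), and COL5A1, a fibrillar collagen chain (8.3 and 14.6), were exactly 300 nt long in both tables, and neither reached a base upstream of the start. PGRMC2, a membrane haem-binding protein, had 13.3 and 10, CUL3, the scaffold of a ubiquitin ligase, 4.48 and 5.62, and YBX3, a cold shock domain protein, 2.94 and 2.72. The first listed base of the 22 starts was A in 9, G in 9 and C in 4.

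In 7 of the 22, the peaks of both replicates reached at least 100 nt upstream of the listed start. Upstream stretches inside both peaks are shown for 4 of them, on the gene's strand and ending at the base before the start, because the enriched RNA there lay upstream of the listed transcript.
YY1, chr14:100238894-100239143, plus strand: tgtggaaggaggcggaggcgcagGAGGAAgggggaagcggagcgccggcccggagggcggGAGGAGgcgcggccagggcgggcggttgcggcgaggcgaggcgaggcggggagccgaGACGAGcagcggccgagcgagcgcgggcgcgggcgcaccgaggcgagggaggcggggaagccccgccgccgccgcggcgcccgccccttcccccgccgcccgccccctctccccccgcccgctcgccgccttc
PTGR3, chr18:75209140-75209348, minus strand: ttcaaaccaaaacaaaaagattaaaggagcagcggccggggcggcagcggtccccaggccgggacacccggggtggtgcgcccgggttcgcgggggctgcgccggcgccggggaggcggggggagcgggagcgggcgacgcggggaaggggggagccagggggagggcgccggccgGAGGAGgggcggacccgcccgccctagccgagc
PIP4K2B, chr17:38799557-38799756, minus strand: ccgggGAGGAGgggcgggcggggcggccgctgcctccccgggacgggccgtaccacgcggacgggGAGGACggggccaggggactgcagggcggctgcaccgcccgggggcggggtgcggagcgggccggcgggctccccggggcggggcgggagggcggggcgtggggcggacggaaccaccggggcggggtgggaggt
U2AF2, chr19:55654785-55655034, plus strand: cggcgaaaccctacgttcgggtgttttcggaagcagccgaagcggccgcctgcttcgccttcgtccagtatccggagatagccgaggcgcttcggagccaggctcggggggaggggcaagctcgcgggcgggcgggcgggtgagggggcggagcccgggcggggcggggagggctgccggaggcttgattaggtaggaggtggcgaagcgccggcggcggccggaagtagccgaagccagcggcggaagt
The YY1 stretch held 3 matches to GANGAN and was 83.2% G or C, the PTGR3 stretch held 1 match at 77.5%, PIP4K2B held 2 at 85.5%, and the U2AF2 stretch held none at 72.4%. The U2AF2 peaks reached 535 nt upstream in both replicates, past the 250 bases of the start table, and those of YY1 reached 290 nt. YY1, a zinc finger transcription factor, had folds of 6.08 and 6.64, PTGR3, a prostaglandin reductase, 37 and 22, PIP4K2B, a phosphoinositide kinase, 21.4 and 37.1, and U2AF2, the splicing factor that binds the polypyrimidine tract, 4.57 and 7.86. ERO1A, an oxidase of the endoplasmic reticulum, HDGFL3, of the hepatoma-derived growth factor family, and RALY, an hnRNP, were the other 3, with 6.77 and 6.14, 9.25 and 7, and 4.7 and 4.74. Their upstream stretches, which are not shown, held 0, 0 and 1 matches to GANGAN. Around the 22 starts, GANGAN occurred on the sense strand in 15 of the 22 windows of 300 bases (68.2%) and in 66.7% of the windows of all 35116 listed starts. In the first 50 bases it occurred in 3 of 22 (13.6%) against 19.6% of all starts. Matches on the opposite strand of the windows occurred at 72.7% against 65.1%, and overlapping matches counted once for a window. The median G and C content of the windows was 73.5% for the 22 and 58.7% for all starts. It was 68.7% for all 173 listed starts of genes with a shared long peak, so much of the excess was not particular to the 22.

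**Figure D1:**
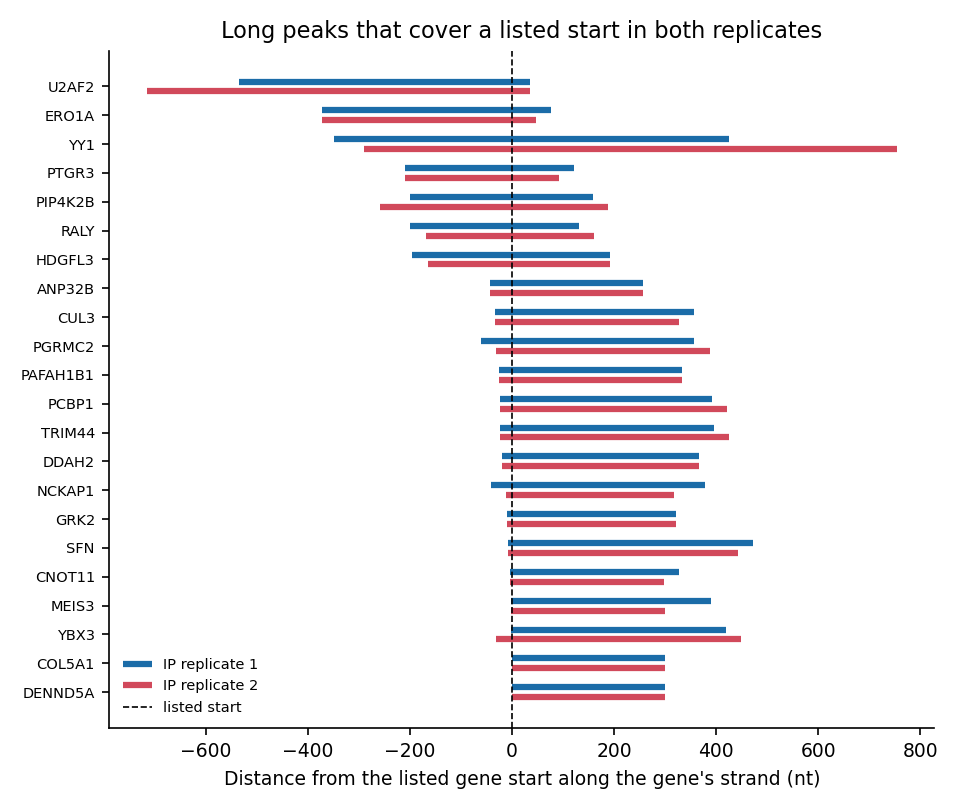
Extent of each peak in both IP replicates for the 22 shared long peaks that covered the same listed start, drawn to scale along the gene's strand, with the start at 0 and bars for each replicate. The peaks of 7 genes reach 100 nt or more upstream in both, and those of DENND5A and COL5A1 begin at the start.

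Among all long peaks whose gene has a listed start, 39 of 228 covered one in replicate 1 (17.1%, Wilson 95% interval 12.8 to 22.5, counting error only) and 34 of 234 in replicate 2 (14.5%, 10.6 to 19.6). Over all peaks the share was 11.2% and 10.5%, and over shorter single-block peaks 9.10% and 8.67%. A longer block has more bases with which to cover a start, and coverage rose with block length up to 500 nt. From 500 nt upward it was low, at 3 of 39 (7.69%) and 2 of 45 (4.44%), whereas between 300 and 400 nt it was 26 of 137 and 20 of 138, and between 400 and 500 nt 10 of 52 and 12 of 51. The position of the 5′ end does not gain from length in this way. It lay within 200 nt of a listed start in 37.3% and 33.8% of long peaks, 31.3% and 27.9% of shorter single-block peaks and 33.0% and 29.1% of all peaks. Long peaks were thus above both in each replicate, by somewhat more than the replicates differed, and peaks of 2 blocks stood at 40.0% and 32.3%. The shares of long peaks rest on 85 of 228 and 79 of 234, and no interval was computed for them. Most long peaks overlap a peak of the other replicate, so the replicates are not independent here.

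By the midpoint of the peak, 50 long peaks of replicate 1 (16.8%) and 44 of replicate 2 (14.6%) lay within 200 nt of the annotated gene start, against 17.5% and 14.5% of all peaks and 25.1% and 22.2% of shorter single-block peaks. This measure is bounded for long peaks, whose midpoint is never nearer than 150 nt to either of their own ends. At the other end of genes, 59 long peaks (19.8%) and 84 (27.8%) had their midpoint within 1000 nt of the annotated gene end, against 14.7% and 16.0% of all peaks and 19.0% and 21.6% of shorter single-block peaks. The replicates differed here by more than for the start, and in replicate 1 the long and shorter single-block peaks were nearly equal. By the 3′ end of the peak the shares were 25.5% and 32.1%, against 17.4% and 19.1% of all peaks and 20.1% and 22.6% of shorter single-block peaks. The gene table gives spans without exons, so a place within 1000 nt of a gene end is not shown to be untranslated sequence.

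By place, the 172 shared long peaks fell into 4 groups, assigned in the order given here. A peak near both a start and the gene end, such as those of SFN and CCDC85B, was thus counted with the starts. In addition to the 22 at a covered start, 52 (30.2%) covered a listed start or began within 200 nt of a start in at least 1 replicate, 48 (27.9%) ended within 1000 nt of the gene end in both, and 50 (29.1%) lay elsewhere. Other shared peaks were not sorted by this rule, so these shares are not shown to be particular to long ones. Median folds were 6.65 and 6.79 at covered starts, 7.28 and 8.45 near starts, 5.61 and 6.37 near gene ends, and 5.59 and 4.59 elsewhere. The 4 groups overlapped widely, with lower folds from 1.66 to 24.3 at covered starts and from 1.35 to 87.9 elsewhere. Peaks near gene ends had the greatest median length, 472.5 and 479.5 nt, against 388.5 and 360 nt at covered starts.

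The shared long peaks with the highest lower fold of both replicates stood on genes of varied function and place. SNX8, a sorting nexin of endosomes, had 98.7 and 110 over 690 and 660 nt, 660 and 720 nt from the annotated gene end. SYNCRIP, an RNA-binding hnRNP, had 87.9 and 95 over 360 and 330 nt, with its 5′ end 545 nt from the gene start in both. POU3F3, a neural transcription factor encoded by a single coding exon, had 74 and 135 over 449 and 329 nt. MDFI, an inhibitor of myogenic factors, had 43.2 and 63.3 in a peak whose 3′ end fell on the last annotated base of the gene in both replicates. The common stretch of both MDFI peaks lay on chromosome 6 from 41653858 to 41654244 (GRCh38, plus strand). In the SNX8 and SYNCRIP pairs the replicates differed by less than the median difference over shared long peaks, and in the POU3F3 pair by more.

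VGF combined a high fold with great length and strong significance. Its peak, on the precursor of secreted neuropeptides, spanned 1099 and 1040 nt on chromosome 7, with 1040 nt in common from 101162835 to 101163874 on the minus strand. Its folds were 48.5 and 40.9, and its log10 p -181 and -159. Other high folds with strong significance lay on FADS2, a fatty acid desaturase (31.2 and 31, log10 p -91.2 and -120), and CENPB, which binds centromeric satellite DNA (38.3 and 28, log10 p -142 and -99.1). The FADS2 peak ended 179 nt before the annotated gene end in replicate 1. VGF was the only one of the 12 shared long peaks with the highest lower fold whose length passed 1000 nt.

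SRF, the transcription factor of serum response genes, carried a peak of 37 and 70 with a log10 p of -8.65 and -6.54, the weakest of these 12, and a further one of 7.67 and 5.57, with 8034 and 8064 nt between them. TNK2, a tyrosine kinase, had 49.3 and 32.5 in a peak that began 458 nt upstream of the annotated gene start in both replicates. Its blocks of 389 and 359 nt did not reach that start, so both lay outside the annotated gene. ZFP91, a zinc finger ubiquitin ligase, had 26.4 and 25, and HS2ST1, a heparan sulfate sulfotransferase, 24.7 and 60, both beginning close to the gene start. A read-through gene, ZFP91-CNTF, also spans the ZFP91 peak on the same strand. Among the 12, the higher fold belonged to replicate 1 for VGF, TNK2, FADS2, CENPB, ZFP91 and NCKAP1 and to replicate 2 for the others.

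**Figure D2:**
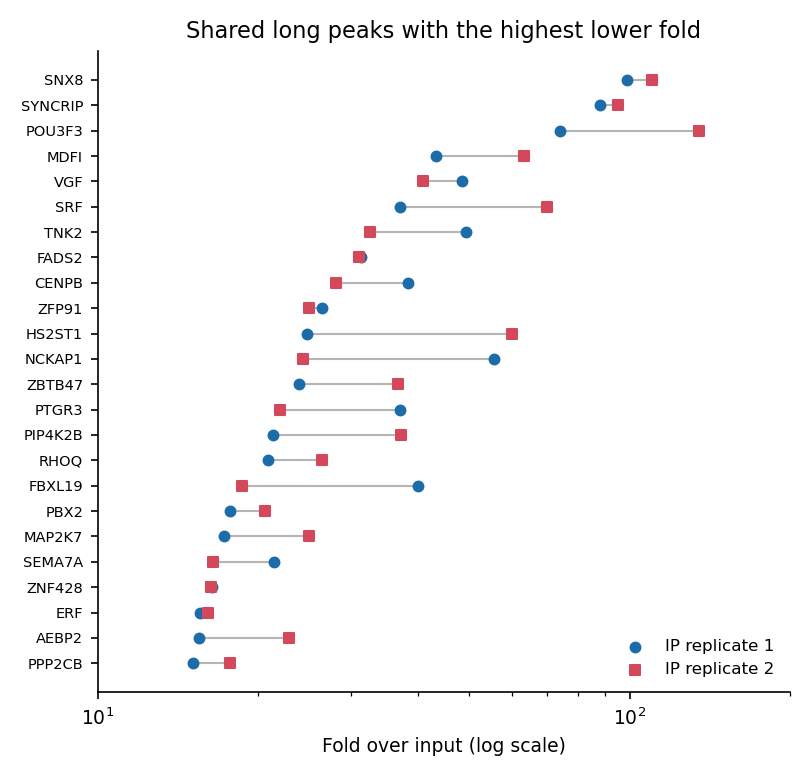
Fold over input (log axis) in IP replicate 1 (circles) and IP replicate 2 (squares) of the 24 shared long peaks with the highest lower fold, each row a peak and the line its span between replicates. SNX8 (98.7 and 110), SYNCRIP (87.9 and 95) and POU3F3 (74 and 135) stand above the rest.

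Over all 172 shared long peaks the median lower fold was 5.68 (interquartile range 3.38 to 10.2), against 3.53 over all 2639 mutually best overlaps of any kind. In 118 (68.6%) both folds were at least 4, against 42.9% of all mutually best overlaps. The lower fold was at least 10 in 47 and at least 20 in 16, and it was under 2 in 13. The lowest included FTH1, the ferritin heavy chain, and PABPC1, the cytoplasmic poly(A)-binding protein. FTH1 and PABPC1 have processed copies elsewhere in the genome, so how reads were divided among copies is uncertain.

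Folds of the 2 replicates were close. The median absolute log2 difference was 0.32, a factor of 1.25, and 95% of the pairs differed by less than 1.18, a factor of 2.26. The same median over 1186 pairs of shorter single-block peaks was also 0.32, and over all mutually best overlaps 0.30. Of the 172, 160 agreed within a factor of 2 and 12 did not. Across the 172 peaks, which are not replicates, Spearman's rho was 0.89 and Pearson's r of log2 folds 0.91, given as a description. Replicate 1 had the higher fold in 98 and replicate 2 in 74.

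The largest disagreements were MMP14, ARID1A and MICOS10-NBL1. MMP14, a membrane-bound matrix metalloproteinase, had 4.46 and 22.8, with a block of 420 nt in replicate 1 and 809 nt in replicate 2. A second replicate 1 peak of 300 nt, with a fold of 26.6, lay inside the same replicate 2 block, so the pair sets 1 piece of a stretch against the whole of it. MICOS10-NBL1, a read-through gene whose peak also lies in the span of NBL1 on the same strand, had 8.77 and 2.17 with log10 p of -5.57 and -7.55. ARID1A, a subunit of SWI/SNF remodelling complexes, had 23.8 and 8.72 over 689 and 390 nt, and its replicate 1 block also overlapped a replicate 2 peak of 300 nt with a fold of 10.6. In all 3, at least 1 block overlapped more than 1 peak of the other replicate. This held for 17 of the 172 shared long peaks, and for 4 of the 12 that differed by more than a factor of 2.

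**Figure D3:**
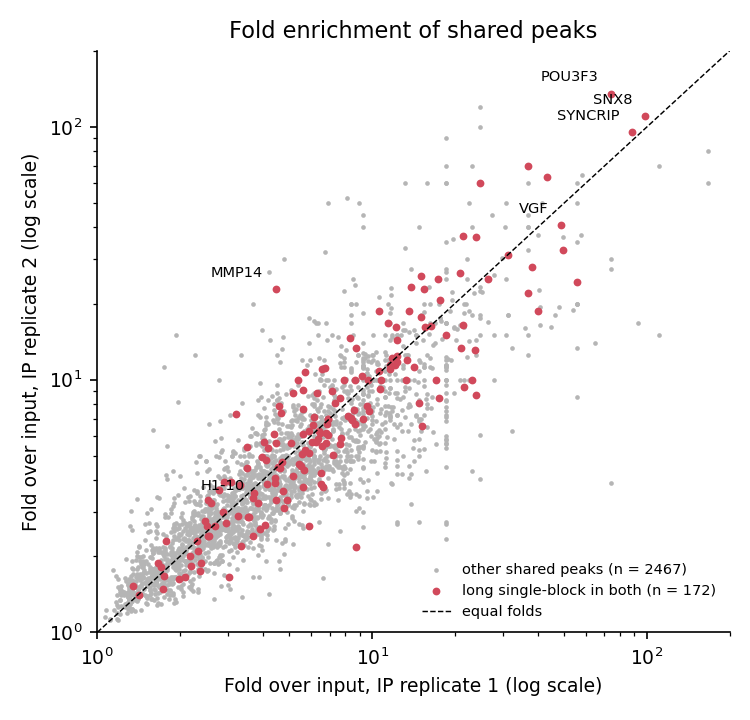
Fold over input of IP replicate 1 against IP replicate 2, both on log axes, for the 172 shared long peaks (red) and the other mutually best overlaps (grey), with a dashed line of equal folds. The long peaks lie along the line, with MMP14 (4.46 and 22.8), whose replicate 2 block also held a replicate 1 peak of fold 26.6, among the farthest from it.

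The extents of shared long peaks were also close. Both ends were identical in 25, exactly 1 end in 66 and neither in 81, and the median difference in length was 31 nt. The longer block was in replicate 1 for 70, in replicate 2 for 62, and lengths were equal for 40. Block sizes fell within 1 nt of a multiple of 30 nt for 92.8% and 92.9% of single-block peaks and for 71.1% and 71.0% of long ones, so 31 nt is about 1 such step. The median length of long peaks was 388.5 nt (interquartile range 330 to 467) in replicate 1 and 388 nt (330 to 450) in replicate 2, and that of shorter single-block peaks was 121 nt in both. The longest were PLEC, the cytoskeletal linker plectin, in replicate 1 (2368 nt) and CAVIN1, a coat protein of caveolae, in replicate 2 (1461 nt).

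By the shorter of both lengths, 71 shared long peaks measured at least 400 nt, 36 at least 500 nt and 3 at least 1000 nt. ERF, an ETS-family repressor, led by the shorter length, with 1429 and 1400 nt on chromosome 19, with 1400 nt in common from 42247561 to 42248960 on the minus strand, and folds of 15.6 and 16.1. CAVIN1 had 1133 and 1461 nt at low folds, 2.46 and 2.77, and VGF is described above. PLEC had 2368 and 780 nt (4.73 and 3.61) and YY1 775 and 1044 nt. GPC1, a heparan sulfate proteoglycan, had the same 720 nt in both (3.97 and 4.93), and ZNF787, a zinc finger protein, 743 and 684 nt (13.6 and 18.7). Among these 7, folds thus ranged from 2.46 to 48.5.

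By significance in both replicates, the leading shared long peaks were those of H1-10, TGFB1, SOX12, TIMP2, VGF and MAZ. H1-10, a replacement linker histone, reached log10 p of -373 and -401 at folds of only 3.83 and 3.26, over 562 and 503 nt. An antisense gene, H1-10-AS1, also spans that peak, and its strand is not in the gene table. TGFB1, the secreted growth factor, had 9.21 and 10.3 with log10 p of -323 and -392, beginning 19 nt from the gene start in replicate 1. SOX12, a single-exon transcription factor, had 12.3 and 11.7 (-213 and -217), TIMP2, an inhibitor of metalloproteinases, 5.16 and 4.14 (-207 and -222), and MAZ, a zinc finger factor, 6.25 and 5.67 (-101 and -122). Among these 6, the most extreme p belonged to H1-10, which had the lowest folds. Outside them, SNX8, at 98.7 and 110, had -26 and -15.1. Over all long peaks the median folds were 5.91 and 5 at a -log10 p of 5 to 10, and 6.79 and 7.53 at 50 or more.

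On 7 genes there were 2 shared long peaks, and none had more. On SOX12 the peaks were separated by 89 nt in replicate 1 and 208 nt in replicate 2, and the weaker had folds of 3.34 and 2.2. FOXD1, a forkhead factor, had 9.74 and 7.53 with 3.54 and 2.87 at the other, and NES, which encodes the intermediate filament protein nestin, 8.64 and 6.67 with 4.05 and 5.69. H1-10 had 2 at folds under 4, and TRIM44 had 5.6 and 3.77 besides the peak at its start. Except on SRF, the gaps were 58 to 507 nt. For 59 of the shared long peaks, the peak was the only one listed for the gene in both tables.

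Gene lists were counted beside the background of 165 of 2104 genes with any shared peak that had a shared long one, 7.84%. Transcription factors encoded by a single exon or coding exon had shared peaks on 11 of 40 members, and 4 of the 11 (36.4%) had a shared long one: POU3F3, SOX12, FOXD1 and CEBPB, a bZIP factor (2.56 and 2.4). Of other intronless or single-coding-exon genes, 6 of 14 with a shared peak (42.9%) had a long one, among them NOG, the BMP antagonist noggin (3.69 and 3.39), H1-10, IER5, an immediate early gene (2.87 and 2.99), and H2AX (1.99 and 1.63). The span of DPAGT1 also covers the H2AX peak on the same strand. Genes with very long exons had 5 of 25 (20%): BPTF, a subunit of the NURF remodeller (21.6 and 9.37), ARID1A, NES, TNRC18 (6.33 and 5.81) and PLEC. A long single block requires a long contiguous stretch, so these shares describe the lists and were given no test.

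Lists chosen for function rather than exon structure lay nearer to the background. Chromatin remodellers and modifiers had 3 of 26 (11.5%), among them SUZ12, a core subunit of PRC2 (9.66 and 10), and ARID1A. Splicing factors had 4 of 35 (11.4%): SYNCRIP, SCAF1, an SR-related protein (8.2 and 7.17), U2AF2 and SF3A2, a component of the U2 snRNP (1.71 and 1.82). Actin cytoskeleton genes had 2 of 28 (7.14%), the cross-linkers ACTN4 (2.54 and 2.41) and FLNA (1.75 and 1.67), and extracellular matrix and osteoblast genes 1 of 18 (5.56%), COL5A1. Ribosomal protein genes had shared peaks on 30 of 75 members and a shared long one on none, and none was long in either replicate. A further list chosen for structure, genes with long 3′ untranslated regions, was not above the background, with 0 of 9. So few genes cannot set it apart from 7.84%. Of its members, CALM3, IGF1R and VEGFA had a long peak in at least 1 replicate, as did 395 genes in all. No background share was computed for that looser count. With each gene entered once by its highest shared long peak, the median lower fold was 9.62 over the single-exon factors. It was 3.07 over the other intronless genes. The median of 5.68 given above counts every shared long peak, so it is not a like measure. The second peaks of SOX12 and FOXD1, left out here, had lower folds of 2.2 and 2.87.

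Markers of cell types were counted beside 2098 of all 20056 protein-coding genes of the gene table, 10.5%, that had a shared peak. Of 10 mesenchymal and bone markers, 5 had a shared peak (CDH2, COL1A1, FN1, SPARC and VIM) and none had a shared long one, COL1A1 being long in replicate 2. Of 10 epithelial markers, CLDN4 and KRT18 had a shared peak, and KRT18, a keratin, had a long one (2.39 and 1.88). No haematopoietic marker had a peak, 1 of 10 hepatocyte markers had a peak but not a shared one, and NEFL and SLC17A7 of 10 neuronal markers had a shared peak that was not long. Absence of a peak does not measure expression.

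Long peaks were next set against the shorter single-block peaks of the same tables, which numbered 2695 and 2873. The median fold of long peaks was 6.49 in replicate 1 and 5.59 in replicate 2 (6.04 ± 0.64, SD, n = 2), and that of shorter ones 4.55 and 3.85 (4.20 ± 0.49). Within each replicate the difference in median log2 fold was 0.51 and 0.54, positive in both replicates and closely alike, and no test was run on the 2 values. Peaks of 2 blocks had medians of 3.47 and 2.78 and those of 3 or more blocks 2.78 and 2.41. Long peaks were also more significant, with a median log10 p of -15.9 and -16.1 against -5.03 and -5.13. Among peaks with a log10 p of -10 or lower, the difference in median log2 fold was 0.28 and 0.45. Within bands of -log10 p the medians of long peaks were above those of shorter ones between 5 and 50, as at 5 to 10 (5.91 and 5 against 5.05 and 4.2). At 50 or more they were below, at 6.79 and 7.53 against 40.4 and 15.9, where 36 and 43 long peaks stood beside 8 and 13 shorter ones.

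The median fold rose with block length below the 300 nt threshold in both replicates. Beyond it the median kept rising in replicate 2 and changed little in replicate 1. Medians were 3.83 and 3.26 below 100 nt, 4.87 and 4.08 from 100 nt, 5.74 and 4.65 from 200 nt, 6.61 and 5.32 from 300 nt, 6.06 and 6.14 from 400 nt, and 6.57 and 6.89 at 500 nt or more. The interquartile ranges of neighbouring lengths overlapped. The threshold marks no step: peaks from 270 nt up to it had medians of 6.39 and 5.35, and those up to 31 nt past it 6.36 and 4.76. Just inside it were 13 shared long peaks of exactly 300 nt in the shorter replicate, with lower folds from 1.83 to 13.9, and GXYLT1, DENND5A, SUZ12, COL5A1 and RBM38 were the 5 highest of them. Just outside, 1 nt short of the threshold in the shorter replicate, the 5 highest by lower fold were GNA11, a G protein subunit (19.2 and 18.7), TCF7L1 (11.7 and 11.8), SEMA4C (16.4 and 7.69), FBXL19 (10.7 and 7.35) and ARIH1 (7.97 and 6.94).

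**Figure D4:**
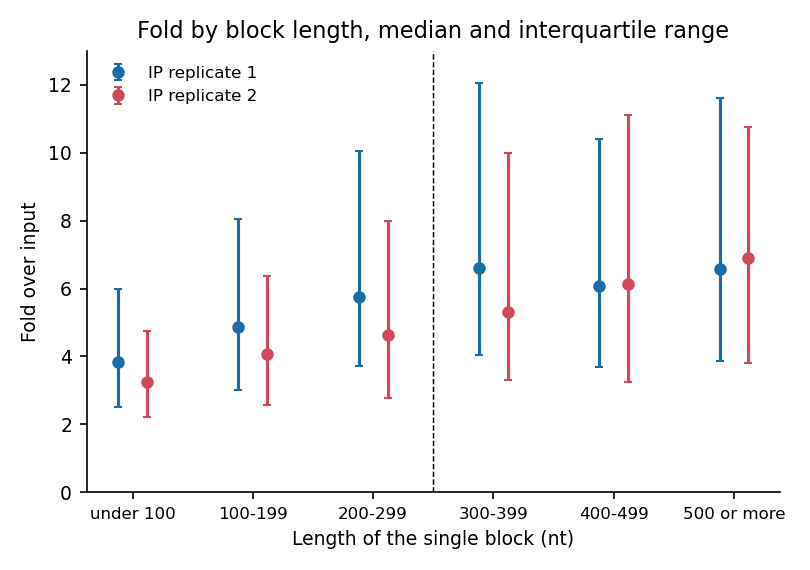
Median fold over input (points) with the interquartile range (bars) of single-block peaks by block length in IP replicates 1 and 2, the dashed line marking 300 nt. Medians rise from 3.83 and 3.26 below 100 nt to 6.61 and 5.32 between 300 and 400 nt, with wide interquartile ranges.

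Long peaks recurred at the same place in nearly all cases. In replicate 1, 291 of 298 (97.7%, Wilson 95.2 to 98.9) overlapped a replicate 2 peak of any kind by at least 1 bp, and in replicate 2, 285 of 303 (94.1%, 90.8 to 96.2) overlapped a replicate 1 peak. Over all peaks the shares were 62.6% and 55.9%, and over shorter single-block peaks 53.7% and 50.6%. A longer block has more room to overlap. When the midpoints of overlapping peaks also had to lie within 100 nt, the shares were 79.2% and 76.2% of long peaks against 46.5% and 43.9% of shorter ones.

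Within bands of significance the classes lay closer. At a -log10 p of 5 to 10, 92.9% and 85.3% of long peaks and 67.3% and 63.0% of shorter ones overlapped the other replicate. At 10 to 20 the shares were 98.9% and 94.2% against 95.4% and 89.1%. From 20 upward all long peaks were shared in both replicates, as were all shorter ones except 1 of 85 in replicate 2 between 20 and 50. In replicates 1 and 2, 1332 and 1378 shorter peaks lay below 5, where only 2 and 1 long peaks lay.

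**Figure D5:**
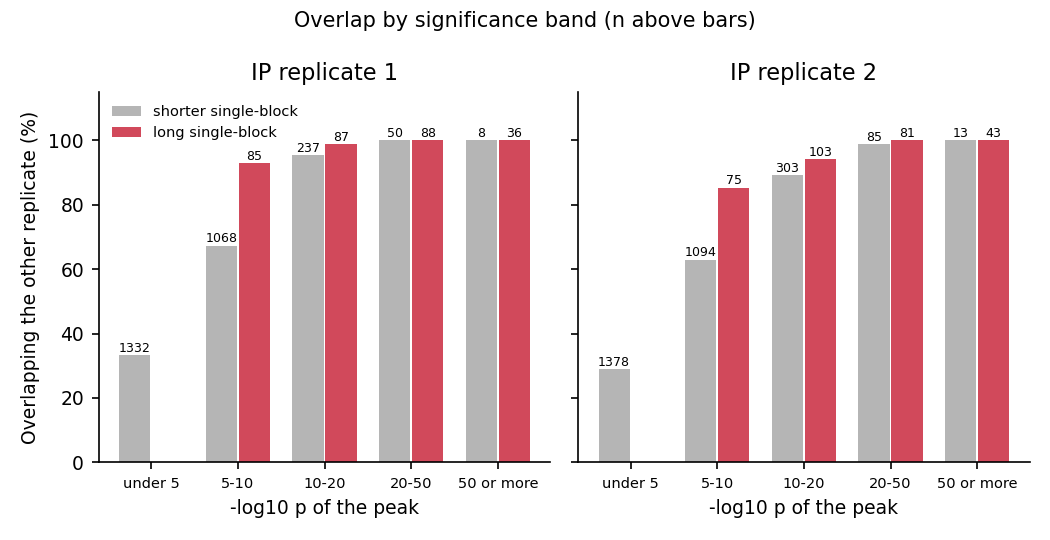
Percent of long (red) and shorter (grey) single-block peaks that overlap a peak of the other replicate, by -log10 p, in each IP replicate, with the number of peaks above each bar and groups under 5 peaks left out. Between 5 and 10 the long peaks stand at 92.9% and 85.3% and the shorter ones at 67.3% and 63.0%, and from 20 upward the bars of both classes are at or near 100%.

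The partner of a long peak was often not long itself. The best overlapping replicate 2 peak of the replicate 1 long peaks was long in 175, a shorter single block in 106 and a peak of 2 blocks in 10, and for replicate 2 the numbers were 176, 97 and 12. The shorter partners had median lengths of 239 and 209 nt, and 76 and 50 of them measured at least 200 nt. More than 1 peak was overlapped by 31 and 20 long peaks. In pairs that were long in 1 replicate and shorter in the other (201 pairs), the median absolute log2 difference in fold was 0.41, against 0.32 where both were long. By gene, 278 and 286 genes carried a long peak, of which 169 did in both replicates (60.8% and 59.1%).

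Long peaks with no overlapping peak numbered 7 in replicate 1 and 18 in replicate 2. The highest in replicate 1 were those of IFNGR2, an interferon gamma receptor chain (fold 37, 415 nt), NTN1, the guidance cue netrin (13, 420 nt), and ARPC5L, an Arp2/3 subunit (9.25, 301 nt). In replicate 2 they were those of RILPL1 (11.1), TNPO2, a nuclear import receptor (5.36), and CEP170B (5.17), each 300 nt long. Over all 7 and 18, log10 p ranged from -10.8 to -5.92 and from -17.5 to -4.94, with medians of -6.41 and -7.25, weaker than those of all long peaks.

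Some high folds took a small set of values. In replicate 1 the most frequent fold of 10 or more was 18.5 (67 peaks), and in replicate 2 it was 10 (60 peaks). Of long peaks at or above these folds, 10 of 37 (27.0%) and 19 of 89 (21.3%) stood at a whole multiple of them, against 53.0% and 29.1% of all peaks at or above. Among shared long peaks, SRF stood at whole multiples in both replicates (37 and 70), and 14 others did in 1 replicate, among them SNX8, POU3F3, HS2ST1 and NCKAP1. The order of such folds rests on coarse steps.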

How the data were processed

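Stranded libraries of input and anti-m7G IP poly(A) RNA were sequenced, per the labels' protocols. Per the submitters' processing notes, STAR and GRCh38 were used (no version stated). The peak caller was not given in the sources used here, nor was the scaling of the fold. Each IP replicate has 1 deposited table, so its peaks were called without pooling. Per the file headers, each row gives a p-value, log10 values of p and of the false discovery rate (treated as a score), a fold of IP over input (a linear ratio), and block number and positions. The weakest deposited false discovery rate was 0.0490 and 0.0479, so peaks less significant than that are not listed.

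Long peaks had 1 block of at least 300 nt. Overlap meant at least 1 bp on the same chromosome and strand, and a shared long peak was long in both tables and mutually the best overlap. Repeated positions (3 and 6 rows) included no long peak. Mutually best overlaps numbered 2639. Gene names of the tables were matched by symbol or synonym, within 2000 nt, to genes of RefSeq's GRCh38.p14 table. This covered all 298 long peaks of replicate 1 (19 by synonym) and 302 of 303 of replicate 2 (17 by synonym). All matched long peaks lay on protein-coding genes. Starts and sequences are RefSeq's (35116 starts of 27305 genes, 250 bases before to 50 bases from each start). Coordinates are 1-based.

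With 1 value for each of 2 replicates, no test was run. Wilson 95% intervals cover counting error only. The text names, among shared long peaks, the 12 with the highest lower fold, the 8 longest by the shorter length, the 6 most significant by the weaker p, up to 5 genes with most such peaks, up to 3 genes for each of 9 lists, the 3 largest replicate differences and 5 pairs on either side of the length threshold, and the 3 highest unshared long peaks of each replicate. Some genes that this rule names are not reported here. Further genes were chosen after their values were seen. Members and lists were chosen with earlier results of these data known. A whole multiple was within 0.05 (0.5 from a fold of 100). Alternatives were other block sizes, overlap rules, distances, summaries and each replicate alone. The overlap search was tested on simulated single-block peaks set far apart. Peaks of several blocks and competing partners were not part of that test. Analyses used pandas 2.3.3 and numpy 2.4.6 in Python 3.11.15, with plots from matplotlib 3.10.9.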

Additional observations from a re-analysis of the deposited data

How the results depend on the processing

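No paired analysis was possible because the input libraries, which share replicate numbers with the IP libraries, have no values of their own in the files used here, and no result comes from a test. Of 83 alternatives, 47 left a result within the spread set for it (for counts, within 1.5 times), 36 moved it and 0 reversed it. A reversal meant a change of sign, which only the difference in fold could show. Counts, shares and the agreement of folds cannot be negative, so for them no reversal was possible. For shares and differences in fold the spread was the SD of both replicates. Leaving out a replicate could not move these, since each replicate always lies within that SD of their mean. For the agreement of folds the spread was the SD of log2 differences across peaks, 0.55. It exceeded the value itself, 0.32, so a move was unlikely there.

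Minimum block sizes of 400 and 500 nt changed the mean number of long peaks from 300.5 to 124.5 and 57.5, and the number of shared ones from 172 to 71 and 36, while 250 nt gave 263 shared ones. Counting a partner of any length or block number gave 395. The mean share overlapping the other replicate, 95.9%, was 83.2% with 50% of the long peak covered, 81.7% with 50% reciprocal overlap, 77.7% with midpoints within 100 nt and 88.3% in the more significant 50% of each table. The mean difference in log2 fold, 0.53, was 0.50, 0.59 and 0.66 at 250, 400 and 500 nt, 0.56 for means of log2 folds and 0.37 at a log10 p of -10 or lower. The last was chosen after seeing the data, as were the covered listed starts, the 3′ ends, the bands of p and the folds off whole multiples. The share near the gene start, 15.7% by midpoint, was 3.66% within 100 nt, 39.4% within 500 nt and 33.3% by the 5′ end. The share near the gene end, 23.8%, was 1.16% within 200 nt and 38.5% within 2000 nt. The cause was not tested, but wider windows and larger minimum sizes add or remove peaks by construction.

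Each replicate alone gave 298 to 303 long peaks, 94.1% to 97.7% overlapping, log2 differences of 0.51 to 0.54, 14.6% to 16.8% near starts and 19.8% to 27.8% near ends.

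Counting genes long in either replicate and paired with any peak raised the lists to 4 members for actin, 7 for chromatin, 4 for extracellular matrix, 3 for long 3′ untranslated regions, 11 for very long exons and 7 for splicing. The same rule raised all shared pairs from 172 to 395. Background shares of genes were not computed under these looser rules, so the rises are not shown to be particular to the lists. A 250 nt minimum, with 263 shared long peaks in all, gave 4 for actin and 3 for extracellular matrix. Long peaks of a single replicate gave 2 to 4 for actin, 3 to 7 for chromatin, 2 to 3 for extracellular matrix, 1 to 2 for long 3′ untranslated regions, 8 to 10 for very long exons, 6 to 7 for other intronless genes, 5 to 5 for single-exon factors, 5 to 6 for splicing and 0 to 0 for ribosomal proteins. In all, 278 and 286 genes had a long peak in replicates 1 and 2, against 165 with a shared one. Without counts, the depth behind a fold is unknown, and 2 replicates limit every comparison.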
